A study of Mus musculus with 6 samples.

Results

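Oligodendrocytes of the mouse spinal cord were picked out of a table of single cells by their values. A cell was counted as an oligodendrocyte when at least 3 of the 6 genes Mog, Mag, Cldn11, Mobp, Cnp and Cryab were above 0 and the sum of the myeloid genes C1qa, Ctss and Tyrobp was below 8. Of 13614 cells, 366 (2.69%, exact binomial 95% interval 2.42 to 2.97%) met the rule, and the other 13248 cells formed the comparison. The cells came from WT mice and from Nd6 mice, which carry a point mutation in the mitochondrially encoded complex I subunit mt-Nd6, either as non-immunized controls or with EAE, an autoimmune inflammation of the CNS started by immunization with a MOG peptide. The labels list 1 library of Nd6 control, 1 of WT control, 2 of Nd6 EAE and 2 of WT EAE spinal cord. All mice were perfused with the transcription blockers actinomycin D and triptolide, and myelin and debris were removed from the suspensions, a step that can also change the share of oligodendrocytes recovered. The table names each cell by a barcode and 1 of 6 endings. Neither these names nor the labels link an ending to a library. The cell totals by genotype that the authors report were not used to place the sets. The cells sharing an ending are called a set here, lettered A to F from the largest to the smallest. The sets were not assigned to a genotype or to EAE, no groups of mice were compared, and no p-value was computed.

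Oligodendrocytes are the cells of the CNS that wrap axons in myelin, a stack of membranes rich in cholesterol and galactolipids and held together by a few abundant proteins. They arise from precursors that express Pdgfra, pass through a newly formed stage and then remain as mature cells for long periods. Mature oligodendrocytes of the mouse are known to fall into several kinds, among them cells marked by Klk6 and Hopx, common in the spinal cord, and cells marked by Ptgds. In demyelinating disease, some oligodendrocytes are known to express Serpina3n, C4b and genes of antigen presentation.

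The deposited values are whole numbers that were not taken as raw UMI counts, since the totals of all cells lie between 687 and 1578 (median 962). The sequencing depth is unknown, and the intervals given here cover counting error of cells only. The median total was 882 in oligodendrocytes and 965 in the other cells, and the median number of genes above 0 was 428 against 550. Over the sets, the median number of genes in oligodendrocytes lay between 358 and 471. No barcode occurred in more than 2 sets, 18 occurred in 2, and 2 oligodendrocytes carried such a barcode.

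The label was checked with genes of myelin that the rule does not use. Ermn, which encodes a cytoskeletal protein of myelin, had a mean of 1.41 in oligodendrocytes and 0.108 in the other cells. Among cells below the myeloid limit, the mean Ermn value was 0.0362 with none of the 6 markers above 0, 0.172 with 1 marker, 0.376 with 2, 0.954 with 3, 1.82 with 4, 2.08 with 5 and 2.06 with all 6. Ermn was therefore higher with each further marker up to 5, and the cells with exactly 3 markers had the lowest level among those counted as oligodendrocytes. Sirt2, a tubulin deacetylase abundant in myelin, had 0.153, 0.230, 0.533, 1.04, 2.33, 3.02 and 3.06 from 0 to 6 markers. Mbp, the gene of myelin basic protein, had 4.38, 22.9, 34.8, 33.1, 23.5, 24.7 and 18.3 from 0 to 6 markers. Mbp was thus higher up to 2 markers, as Ermn and Sirt2 were, and lower again from 4 markers on.

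**Figure D1:**
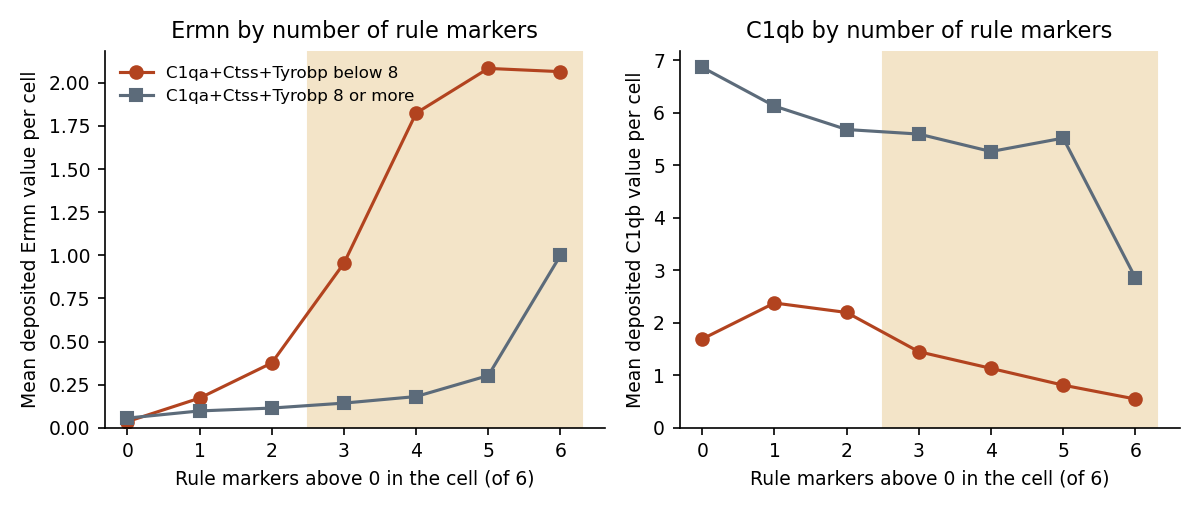
Mean deposited value per cell of Ermn (left) and of the myeloid gene C1qb (right) against the number of the 6 rule markers above 0, for cells with a C1qa, Ctss and Tyrobp sum below 8 (circles) and of 8 or more (squares). The shaded range holds 3 or more markers, and circles within it are the oligodendrocytes, in which Ermn is 0.954 at 3 markers and 2.06 at 6.

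The myeloid limit removed most cells that had the markers. At least 3 markers were above 0 in 1566 cells, and 1200 of these were at or above the limit. Their mean Ermn value was 0.159, close to the 0.108 of the other cells as a whole. Some myelin transcripts were listed in most cells of other kinds as well. Mbp was above 0 in 99.7% of oligodendrocytes (median total 882), in 95.8% of the cells at or above the myeloid limit (median total 984), and in 78.9% of 237 cells with at least 3 endothelial markers (median total 1085). A value above 0 of Mbp therefore says little about a cell's type here, and its mean was 28.3 in oligodendrocytes against 11.1 in the other cells. Of the rule's own genes, Mobp stood apart in this way, being above 0 in 88.3% of oligodendrocytes and 61.5% of other cells, whereas Cnp was above 0 in 74.9% and 14.1%.

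Just inside the rule, the 196 cells with exactly 3 markers had the mean Ermn value of 0.954 given above, and just outside it, the 383 cells with 2 markers below the limit had 0.376. On the other edge, the 33 cells with at least 3 markers and a myeloid sum of 7 had a mean Ermn value of 1.00, and the 42 cells with a sum of 8 had 0.405.

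The sets A to F held 77, 75, 55, 53, 73 and 33 oligodendrocytes. These were 1.66% of set A, 1.88% of B, 3.31% of C, 4.05% of D, 6.06% of E and 4.08% of F. The share was lowest in the largest sets, A and B, and highest in E, whose interval (4.78 to 7.56%) does not overlap those of A (1.31 to 2.07%), B (1.48 to 2.35%) or C (2.5 to 4.28%). Among cells below the myeloid limit alone, the share ran from 12.5% in B to 24.0% in E. There the interval of E (19.32 to 29.2%) overlapped those of A (12.9 to 19.6%), D (16.6 to 27.3%) and F (16.8 to 31.5%). It did not overlap those of B (9.94 to 15.4%) or C (11.6 to 19.26%). All these intervals cover counting error of cells only. The share of a set depends on how many myeloid cells it holds, and recovery from the tissue and content of the tissue cannot be told apart.

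**Figure D2:**
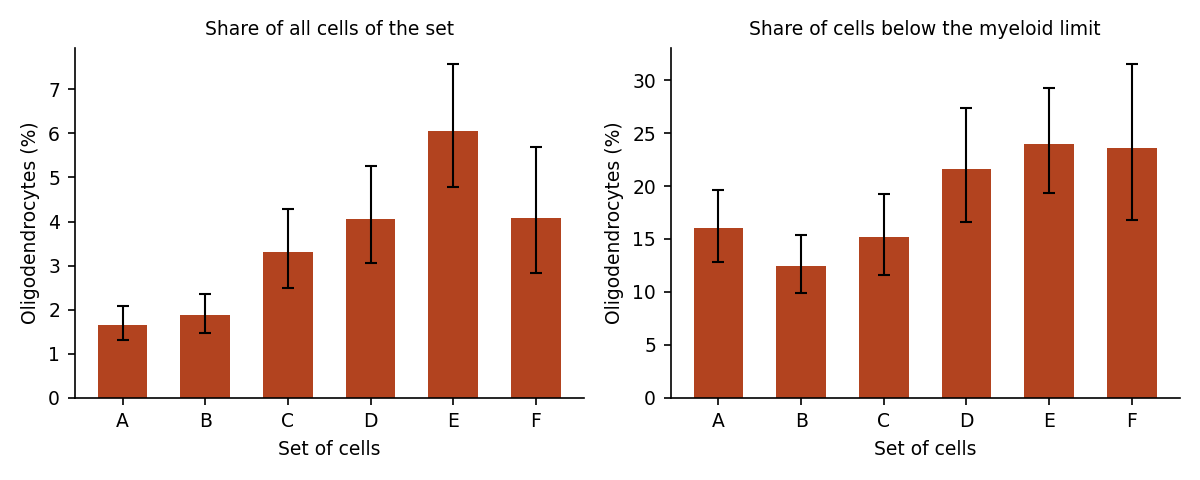
Oligodendrocytes as a percentage of all cells of a set (left) and of its cells below the myeloid limit (right), for sets A to F. Error bars are exact binomial 95% intervals, which cover counting error only, and set E has the highest share in both panels, at 6.06% and 24.0%.

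Across the table, 2706 genes had an average of the means in oligodendrocytes and in other cells of at least 0.05. Of these, 491 (18.1%) had a mean at least 2-fold higher in oligodendrocytes and 602 (22.2%) a mean at least 2-fold lower. In every one of the 6 sets as well, 188 genes (6.95%) were at least 2-fold higher and 173 (6.39%) at least 2-fold lower. The median ratio over the 2706 genes was 0.981. The cells were chosen by values of the same table, and a gene can pass the filter through oligodendrocytes alone, so these counts describe the cells and test nothing.

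The genes with the highest ratio were led by Klk6, which encodes a secreted serine protease, with a mean of 1.10 in oligodendrocytes against 0.0565 (19.6-fold). Next came Uchl1, a ubiquitin hydrolase, at 0.607 against 0.0336 (18.1-fold), and Hopx, a small homeodomain protein, at 0.877 against 0.05 (17.6-fold). Hmgcs1, an early enzyme of cholesterol synthesis, had 0.770 against 0.0503 (15.3-fold). Of the 25 genes with the highest ratio, 24 were at least 2-fold higher in every set. They included the microtubule proteins Map1b (13.2-fold) and Map1a (12.1-fold), Tppp3 of the tubulin polymerization promoting family (15.1-fold), the septin-binding scaffold Anln (13.6-fold) and the myelin cytoskeleton protein Ermn (13.1-fold). The glutathione transferase genes Gstm7 (13.9-fold), Mgst3 (12.7-fold) and Gstp1 (11.7-fold) were also among the 25. Aplp1 (13.1-fold), Phyhipl (12-fold), Cmtm5 (11.3-fold), Ppp2r2c (11.3-fold), Pfn2 (10.9-fold), Elavl3 (10.7-fold), Cadm4 (10.7-fold) and Gm21984 (17.2-fold) completed those named here.

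Uchl1, Map1b and Elavl3 are best known from neurons, so the neuron markers were read beside them. Rbfox3, the marker of neuronal nuclei, was at 0 in all 366 cells, Syt1 had a mean of 0.00273 against 0.00325 in other cells, and Snap25 one of 0.0219 against 0.0184. No oligodendrocyte had 3 or more of the 8 neuron markers above 0. Tubb3, a neuronal tubulin on that list, was higher in oligodendrocytes, at 0.0820 against 0.00694. The means of the 8 markers summed to 0.142 against 0.114.

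Genes of Schwann cells, which make the myelin of peripheral nerves, were read as well. Prx, which encodes periaxin, was above 0 in 7 oligodendrocytes of set A and in none elsewhere. At least 3 Schwann cell markers were above 0 in 7 of the 366 cells, all in set A. Whether these cells are Schwann cells that met the rule was not tested.

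The 10 genes with the lowest ratio included Gngt2, Lair1, Kctd12, Rnase4, Ccl5, Ctsc, Ifngr1, Ccl12 and Ctss, with ratios between 0.119 and 0.158. Several are known from microglia and other myeloid cells, and Ctss was part of the rule. In every set, 8 of the 10 were at least 2-fold lower.

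The 6 rule markers had levels between 0.448 for Mog and 3.45 for Mobp, and the values that follow for them are a description of the choice. Mag, an adhesion protein of the innermost myelin layer, had set means of 0.948, 1.36, 1.02, 0.623, 0.822 and 1.39 in A to F. Cldn11, which forms the tight junctions of CNS myelin, had 1.42, 1.21, 1.05, 0.660, 0.521 and 0.848. Cldn11 was highest in set A and lowest in E, and Mag was lowest in D.

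Of 12 genes of myelin structure that the rule does not use, 11 passed the filter and all 11 were at least 2-fold higher, 9 of them in every set. The background over all genes tested was 18.1%, and 6.95% for genes higher in every set. Since the cells were chosen by related genes, nothing is read from the counts. Ermn had set means of 1.27, 1.11, 1.27, 1.68, 2.03 and 0.879, highest in E and lowest in F, and Mbp ranged from 18.3 in B to 38.4 in D. Gpm6b, a membrane glycoprotein, had a mean of 1.90 against 0.264, the raft protein gene Mal 1.54 against 0.161, and Opalin, a membrane glycoprotein of the myelin surface, 0.156 against 0.0383. Of 8 genes of myelin lipids, 5 were at least 2-fold higher, among them Ugt8a, which makes the galactolipids of myelin (0.366 against 0.0362), Gal3st1, which turns them into sulfatide (0.164 against 0.0106), and Aspa, which releases acetate from N-acetylaspartate (0.189 against 0.0271). Cers2, which makes very long chain ceramides, was at 0.0929 against 0.0697, and Elovl1 and Elovl7 did not reach the filter.

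Genes of contact with the axon, of channels and of the cytoskeleton were read in the same way, beside the same background of 18.1%. The glial neurofascin gene Nfasc had 0.325 against 0.0409. Of 6 genes on the axon contact list, 5 reached the filter and all 5 were at least 2-fold higher. Gjb1, which encodes connexin 32 of myelin gap junctions, had 0.175 against 0.0115. Of 8 genes on the channel and transport list, 6 reached the filter and all 6 were at least 2-fold higher. All 8 cytoskeleton genes were at least 2-fold higher in every set, where the background was 6.95%. Sirt2 was at 1.79 against 0.222. Stmn1, which destabilizes microtubules, had set means of 1.58, 1.60, 1.93, 3.91, 2.40 and 1.97, with D the highest. Transcription factors had low values. Olig1 was at 0.301 against 0.0384, Nkx6-2 at 0.175 against 0.0165, Sox10 at 0.0984 against 0.0171, and 5 of 9 listed factors, Olig2 and Myrf among them, did not reach the filter.

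Oligodendrocytes hold much of the iron of the brain, and Fth1, the heavy chain of ferritin, had the highest mean of any gene in these cells, at 91.1 against 33.4. Its set means in oligodendrocytes were 72.3, 60.7, 97.7, 120, 118 and 86.7, and those of the other cells were 35.9, 31.9, 39.8, 22.7, 29.9 and 36.3. Fth1 was thus higher in oligodendrocytes in every set, and the ratio was largest in D (5.29) and E (3.95), where the other cells had the least. Trf, the gene of transferrin, had 3.77 against 1.01. The light chain Ftl1 went the other way, at 2.42 against 4.05, and was below the other cells in every set.

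The genes of mature subtypes split the cells. Klk6 was above 0 in 36.3% of oligodendrocytes (interval 31.4 to 41.5%) and 4.73% of other cells, and Hopx in 39.3% and 3.92%. Both shares depended on the rule. Klk6 was at 24.2% when 2 markers were asked for and 14.6% with no myeloid limit. Hopx was at 12.1% with no limit and 60.0% in the 90 cells with a myeloid sum of 0. Of these 90 cells, 19 were in D and 45 in E, where Hopx was above 0 in 58.5% and 58.9% of all oligodendrocytes. The part of the set mix in the 60.0% was not tested. Ptgds, which makes prostaglandin D2, was above 0 in 37.2% of oligodendrocytes and 37.2% of other cells, so that its detection did not separate them. Its level did, since values of at least 3 occurred in 16.7% of oligodendrocytes and 5.28% of other cells, and values of at least 10 in 8.20% and 0.151%. The highest Ptgds value in an oligodendrocyte was 98. Apod, a lipid carrier, had a mean of 8.62 against 0.778, and S100b, a calcium-binding protein, 6.58 against 0.957. Hopx was also above 0 in 31.2% of 109 cells with at least 3 ependymal markers and in 15.6% of 64 with at least 3 astrocyte markers. S100b was above 0 in 58.7% and 56.25% of these, against 73.5% of oligodendrocytes, whereas Klk6 was in 1.83% and 1.56%. In oligodendrocytes, the values of the subtype genes were uneven between cells as well as between sets.

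To see which genes went together, the cells were grouped by Klk6 above 0 and by Ptgds of at least 3, a bound chosen after the values above had been seen. There were 127 cells with Klk6 and without that level of Ptgds, 55 with that level of Ptgds and without Klk6, 6 with both and 178 with neither. The first 2 groups are called Klk6 cells and Ptgds cells. Klk6 cells had a median of 480 genes and a total of 971, and Ptgds cells 410 genes and a total of 834. Mal was above 0 in 66.1% of Klk6 cells and 60.0% of Ptgds cells, with means of 1.28 and 3.6.

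Hopx was above 0 in 63.8% of Klk6 cells (interval 54.8 to 72.1%) and 5.45% of Ptgds cells (1.14 to 15.1%). Anxa5, a phospholipid-binding annexin, was above 0 in 64.6% and 14.5%, S100b in 92.1% and 38.2%, Apod in 96.9% and 50.9%, and Trf in 97.6% and 67.3%. Each of these genes was thus found in fewer Ptgds cells. The opposite held for Qdpr, which regenerates tetrahydrobiopterin, with 32.3% of Klk6 cells (24.3 to 41.2%) and 85.5% of Ptgds cells (73.3 to 93.5%). Opalin was above 0 in 1 of 127 Klk6 cells (0.787%) and in 20 of 55 Ptgds cells (36.4%). The cytokine gene Il33 had 9.45% and 21.8%, with overlapping intervals. Grm3, a glutamate receptor gene also used as a marker of Ptgds oligodendrocytes, was nearly absent, with 4 cells above 0 among all 366.

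**Figure D3:**
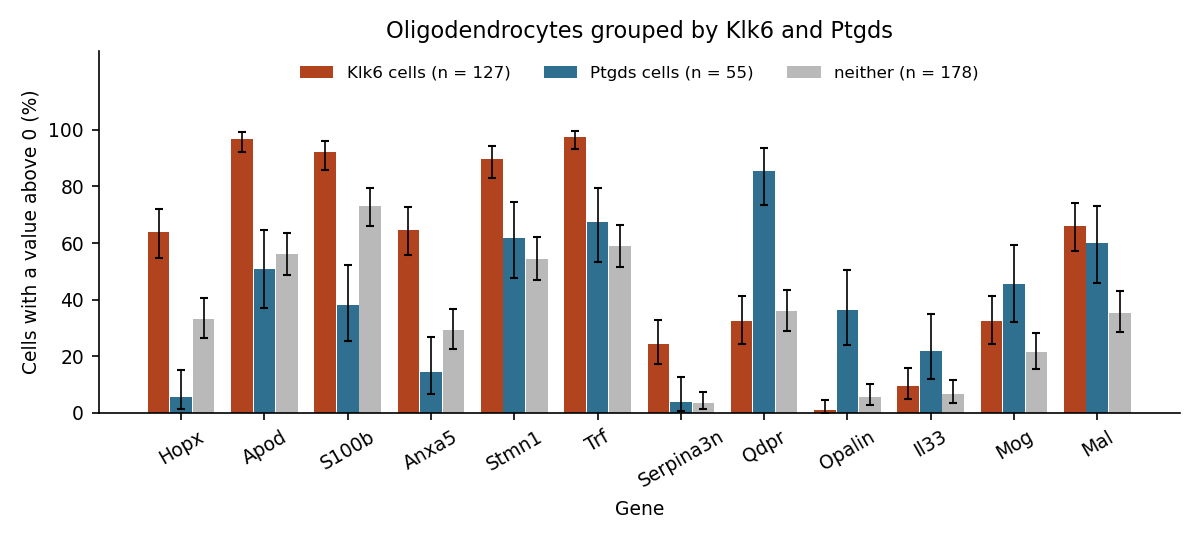
Percentage of cells with a value above 0 for 12 genes in 127 Klk6 cells (Klk6 above 0, Ptgds below 3), 55 Ptgds cells (Ptgds at least 3, Klk6 at 0) and 178 oligodendrocytes with neither, all sets pooled. Error bars are exact binomial 95% intervals; Hopx, S100b and Anxa5 stand higher in Klk6 cells, and Qdpr and Opalin in Ptgds cells.

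The split was seen within the sets. The share of cells with Hopx was higher in Klk6 cells than in Ptgds cells in all 6 sets, ranging from 48.6 to 92.9% in the former and from 0 to 23.1% in the latter. All 3 Ptgds cells with Hopx were in set D, and the 1 Klk6 cell with Opalin was in set B. The same order held in 6 of 6 sets for S100b and Anxa5, and the reverse order in 6 of 6 sets for Qdpr and Opalin. Ptgds cells numbered between 6 and 13 in a set. Hopx and Opalin were not found together, since none of the 35 cells with Opalin had Hopx above 0 (0%, interval 0 to 10.0%) against 43.5% of the other 331 oligodendrocytes. Of the 178 cells with neither gene, 33.1% had Hopx and 73.0% had S100b above 0, and their mean number of rule markers was 3.46 against 3.94 in Klk6 cells and 4.18 in Ptgds cells.

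The mix differed between sets. Klk6 cells made up 24.7% of oligodendrocytes in A, 49.3% in B, 41.8% in C, 26.4% in D, 32.9% in E and 30.3% in F. Mean Klk6 values were 1.01, 2.04, 1.16, 0.547, 0.658 and 0.970, highest in B and lowest in D. Apod had 8.13, 13.1, 15.2, 3.83, 4.19 and 6.12, likewise with its lowest values in D and E. Hopx did not follow Klk6 here, with 0.481, 0.613, 0.673, 1.40, 1.42 and 0.697, highest in D and E. S100b had 4.13, 3.91, 7.84, 9.38, 9.04 and 6.33. Ptgds had 3.48, 3.23, 2.07, 2.72, 4.29 and 10.2, with F the highest, and set F also had the highest Ptgds mean in its other cells (1.82).

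Of 16 genes of cholesterol synthesis, 6 passed the filter and all 6 were at least 2-fold higher in oligodendrocytes, namely Hmgcs1, Idi1, Fdps, Cyp51, Msmo1 and Sc5d. The background was 18.1%, and nothing is read from the count. The other 10 did not reach the filter. Hmgcs1 had set means of 0.195, 0.533, 0.218, 1.51, 1.53 and 0.697. It was above 0 in 18.2% of oligodendrocytes of A, 24.0% of B, 14.5% of C, 52.8% of D, 47.9% of E and 27.3% of F, against 2.42 to 7.69% of the other cells of a set. Over all sets Hmgcs1 was above 0 in 30.6% of oligodendrocytes. That share was 11.0% with no myeloid limit and 47.8% in the 90 cells with a sum of 0. By set A to F, Hmgcs1 was above 0 in 0 of 8, 4 of 7, 3 of 7, 10 of 19, 25 of 45 and 1 of 4 of these. Idi1, the isomerase further down the pathway, had 0.0390, 0.0800, 0.0909, 0.170, 0.329 and 0.242. Summed over the 16 genes, the means were 0.610, 1.36, 0.545, 2.42, 2.92 and 1.55 in oligodendrocytes and 0.193, 0.229, 0.117, 0.274, 0.317 and 0.235 in the other cells. The sum was above that of the other cells in each set and was highest in E and D, where Hmgcs1 made up much of it. Without Hmgcs1 it was 0.416, 0.827, 0.327, 0.906, 1.38 and 0.848, so that E remained the highest and D lay close to B and F.

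**Figure D4:**
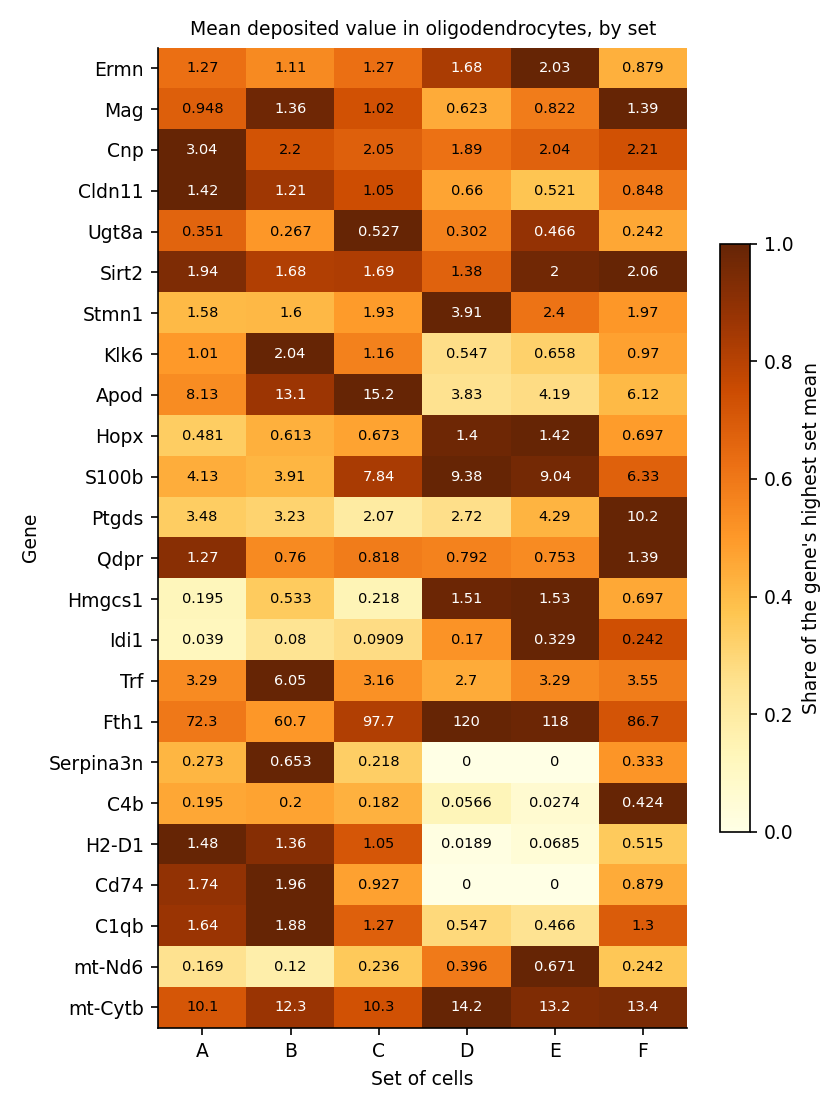
Mean deposited value of 24 genes in the oligodendrocytes of sets A to F, printed in each field, with the colour giving its share of the gene's highest set mean. Ermn lies between 0.879 and 2.03, Hmgcs1, Hopx and Fth1 are highest in D and E, and Serpina3n and Cd74 are 0 there.

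Of the 10 genes listed as associated with inflammation in glia, Serpina3n, a secreted protease inhibitor, stood out with a mean of 0.254 against 0.0296 (8.59-fold). Its set means were 0.273 in A, 0.653 in B, 0.218 in C, 0 in D, 0 in E and 0.333 in F. It was above 0 in 9, 24 and 7 oligodendrocytes of A, B and C, in none of the 53 of D and the 73 of E, and in 2 of the 33 of F, where a single cell held the highest value of 10. Over all sets it was above 0 in 11.5% of oligodendrocytes, and in 6.19% without set B. Among 64 cells with at least 3 astrocyte markers, Serpina3n was above 0 in a like share, 10.9%, with a mean of 0.156. Cells with at least 3 endothelial or ependymal markers had means of 0.0295 and 0. The other cells had 0.0378, 0.0406, 0.0298, 0, 0.000884 and 0.0155, so that the gene was higher in oligodendrocytes in A, B, C and F and near or at 0 everywhere in D and E. Serpina3n went with Klk6, which was above 0 in 34 of 42 cells with Serpina3n (81.0%, interval 65.9 to 91.4%). Klk6 was above 0 in 30.6% of the 324 cells without Serpina3n. Both shares are pooled over sets, and the 81.0% was 46.7% with no myeloid limit and 83.3% without set B. C4b, a complement gene, had 0.195, 0.2, 0.182, 0.0566, 0.0274 and 0.424 in oligodendrocytes against 0.121, 0.221, 0.0833, 0.000796, 0.00265 and 0.0580 in other cells. C4b was below the other cells in B only, but some set means rest on few cells. It was above 0 in 2 oligodendrocytes each of D and E and in 4 of F, where the highest value was 7. Pooled over sets, C4b was above 0 in 11.2% of oligodendrocytes and 10.4% of other cells, with means of 0.161 and 0.121. The 64 cells with astrocyte markers had 12.5% and a mean of 0.188. Of the 10 genes, 8 reached the filter, of which 2 (25%) were at least 2-fold higher (Serpina3n and Cdkn1a), 2 (25%) at least 2-fold lower and 4 neither, close to the backgrounds of 18.1% and 22.2%.

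Genes of antigen presentation were lower in oligodendrocytes than in the other cells, of which 11481 of 13248 were at or above the myeloid limit. Of 11 genes for MHC class I presentation, 8 reached the filter, of which 7 were at least 2-fold lower and none at least 2-fold higher, against backgrounds of 22.2% and 18.1%. All 4 of the 5 class II genes that reached it were at least 2-fold lower. Beside cells with at least 3 markers of another type the order differed. Cd74 had a mean of 0.986 in oligodendrocytes, 1.52 in 64 cells with at least 3 astrocyte markers, 0.586 in endothelial and 0.165 in 109 ependymal marker cells. B2m had 1.55, 1.83, 1.59 and 0.303 in the same cells, and H2-D1 0.811, 0.938, 1.28 and 0.174. In these means, pooled over sets, oligodendrocytes were thus above the ependymal marker cells in all 3 genes and above the endothelial ones in Cd74. The ependymal markers of the other cells summed to 0.261 in D and 0.383 in E, and to between 0.0398 and 0.0977 elsewhere. The order of these cell types within a set was not tested. H2-D1, a class I heavy chain, had 1.48, 1.36, 1.05, 0.0189, 0.0685 and 0.515 in oligodendrocytes of A to F and 2.56, 2.63, 2.45, 0.458, 0.478 and 2.70 in the other cells. Cd74, the class II invariant chain, had 1.74, 1.96, 0.927, 0, 0 and 0.879, and in the other cells 4.46, 3.94, 2.95, 0.0279, 0.0522 and 2.20. Both genes were lowest in D and E in oligodendrocytes and in other cells alike. Of 20 interferon-response genes, 10 reached the filter. Of these, 6 were at least 2-fold lower and none at least 2-fold higher, against backgrounds of 22.2% and 18.1%.

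In oligodendrocytes, myeloid genes were lowest in D and E as well, whereas in the other cells they were highest there. The rule bounds myeloid genes in oligodendrocytes, so their place below the other cells is a description of the choice. The rule's own sum of C1qa, Ctss and Tyrobp had means of 3.73, 3.56, 3.49, 1.58, 0.822 and 3.33 in the oligodendrocytes of A to F. The 11 myeloid markers outside the rule summed to a mean of 6.22 in the oligodendrocytes of A, 6.11 in B, 4.24 in C, 2.58 in D, 1.86 in E and 4.3 in F, and to 17.3, 17.6, 16.0, 28.9, 26.3 and 21.5 in the other cells. C1qb had 1.64, 1.88, 1.27, 0.547, 0.466 and 1.30 in oligodendrocytes and 5.12, 5.29, 4.91, 7.49, 6.92 and 6.21 in the other cells. Apoe, abundant in microglia and astrocytes, had 31.4, 11.6, 30.7, 0.755, 0.753 and 10.4, with 94.8, 29.0, 82.5, 1.52, 1.18 and 48.1 in the other cells. The ratio of oligodendrocytes to other cells in A, B, C and F was 0.390, 0.498, 0.314 and 0.399 for Cd74, 0.331, 0.4, 0.372 and 0.215 for Apoe, and 7.22, 16.1, 7.31 and 21.6 for Serpina3n, the last resting on 2 of 33 cells. Cd74 was above 0 in 39.3% of all oligodendrocytes, a share that was 78.0% with no myeloid limit and 8.89% with a sum of 0. The part of free or myeloid RNA in the presentation genes was not tested. In the 90 oligodendrocytes whose sum of C1qa, Ctss and Tyrobp was 0, Cd74 was above 0 in 2 of 8 cells of A, 3 of 7 of B, 1 of 7 of C, 0 of 19 of D, 0 of 45 of E and 2 of 4 of F, and Serpina3n in 3, 2, 2, 0, 0 and 1 of them.

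**Figure D5:**
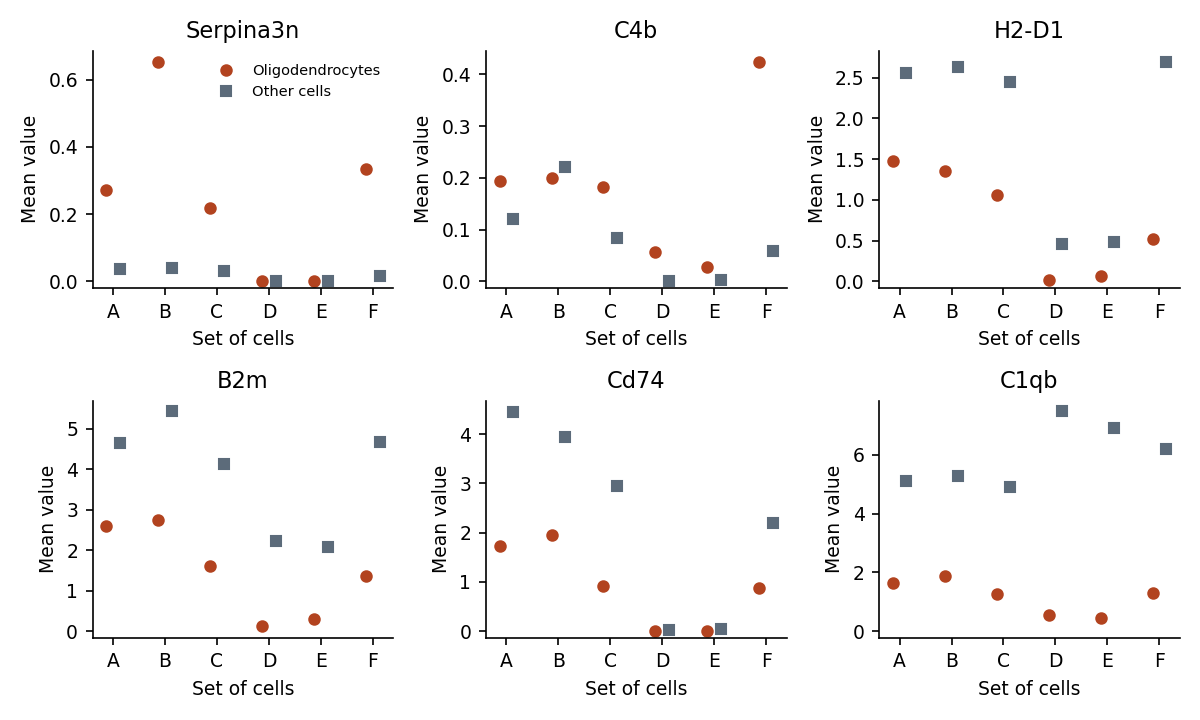
Mean deposited value per cell of Serpina3n, C4b, H2-D1, B2m, Cd74 and the myeloid gene C1qb in the oligodendrocytes (circles) and the other cells (squares) of sets A to F. Serpina3n stands above the other cells in A, B, C and F, while H2-D1, B2m, Cd74 and C1qb stand below them in every set. H2-D1, B2m and Cd74 are lowest in D and E. The rule bounds myeloid genes in oligodendrocytes, so the place of C1qb describes the choice.

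All 13 listed mitochondrially encoded genes reached the filter, and 2 were at least 2-fold higher. The background over all genes tested was 18.1%, and nothing is read from the count. The median ratio pooled over sets was 1.23 over 7 complex I subunits and 1.59 over 6 genes of the other complexes, against 0.981 over all genes tested. Within sets A to F, the complex I means summed to 17.2, 19.5, 17.0, 26.2, 29.3 and 22.8 in oligodendrocytes. In the other cells they summed to 16.9, 18.4, 15.6, 28.4, 27.6 and 27.2, so oligodendrocytes were lower in D and F. Of the complex I subunits, 0 were above the other cells in all 6 sets, and of the other 6 genes 4 were. The share over all genes was not computed for these counts, and nothing is read from them. Among the complex I subunits, mt-Nd3 was at least 2-fold higher, at 0.467 against 0.195, and its set means of 0.974, 0, 0.545, 0.0189, 0.890 and 0 show that it was hardly listed in B, D and F. mt-Nd6, the subunit altered in Nd6 mice, had 0.169, 0.120, 0.236, 0.396, 0.671 and 0.242 in oligodendrocytes and 0.0860, 0.0890, 0.0752, 0.611, 0.561 and 0.161 in other cells. Its level was higher in D and E in both, and oligodendrocytes were above the other cells except in D. mt-Cytb, of complex III, had a mean of 12.1 against 9.69, with a ratio between 1.03 and 1.34 in sets A to E and of 1.00 in F. mt-Co2, of complex IV, had 0.131 against 0.0531 (2.47-fold), mt-Co1 2.80 against 1.83 and mt-Co3 0.388 against 0.243, and all 3 were above the other cells in every set.

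Genes of early precursors had low values. Pdgfra was at 0 in all 366 cells, Cspg4 had a mean of 0.00820 and Gpr17, a receptor of committed precursors, 0.0219. Enpp6, a marker of newly formed oligodendrocytes, was above 0 in 10.7% of cells against 1.01% of other cells, and Fyn, a kinase active early in myelination, had 0.227 against 0.0701. Of the 16 listed genes, 4 reached the filter, and Enpp6 and Fyn were the 2 at least 2-fold higher. The background over all genes tested was 18.1%, and nothing is read from the count. Bcas1, expressed by newly formed and by myelinating oligodendrocytes, had a mean of 0.978 against 0.505 (1.94-fold), was above 0 in 45.9% of oligodendrocytes and 32.4% of other cells, and was above the other cells in all 6 sets. The summed mean of the 16 genes was 1.61 against 0.794. Of the immediate early genes, Fos had a mean of 0.00820, Egr1 of 0.00820 and Fosb of 0. Of 17 stress and immediate early genes, 5 reached the filter. The chaperone gene Hsp90aa1 was at least 2-fold higher (0.699 against 0.271), and Junb was at least 2-fold lower (0.0355 against 0.0939). Dividing cells were few, with Mki67 above 0 in 1 cell (0.273%).

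The markers of other cell types were summed for each list. The summed mean in oligodendrocytes was above that of the other cells for astrocytes (0.669 against 0.491), pericytes and smooth muscle (0.432 against 0.332, and 1.39 against 0.594 in set F), ependymal cells (0.205 against 0.116), precursors (0.126 against 0.0630) and neurons (0.142 against 0.114). It was below for endothelial cells (0.336 against 1.01), T and NK cells (0.0656 against 0.226) and fibroblasts (0.0301 against 0.0694). Their part in the results was not tested. At least 3 markers were above 0 in 9 oligodendrocytes for ependymal cells, 4 for pericytes and smooth muscle, 4 for precursors, 3 for astrocytes, 2 for endothelial cells, 1 for dividing cells and 0 for T and NK cells and for fibroblasts. With the 7 cells for Schwann cells, 30 of the 366 cells had such markers of another type. The astrocyte markers Aqp4 and Gja1 had means of 0.0246 and 0.0137, against 0.0349 and 0.0162 in the other cells. Aldoc, listed as an astrocyte marker, had 0.0779, 0.320, 0.2, 0.604, 0.644 and 0.394 in sets A to F and a mean of 0.363 over all oligodendrocytes against 0.112. In set A it was below the other cells (0.0970).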

How the data were processed

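Single cells of mouse spinal cord were profiled by droplet-based scRNA-seq in 6 libraries. According to the labels and the methods, the authors aligned reads to GRCm38 with Cell Ranger 7.1.0, intronic reads included, merged and filtered the cells in Seurat 4.3.0.1, and deposited 1 table of 13614 cells and 18792 genes. Each deposited value is handled here as a score, because the totals of all cells lie between 687 and 1578 and cells with few genes show gaps at low values. The step from UMIs to these values is not given in the sources used here. Values were used as deposited. A mean is the sum over cells divided by their number, and a ratio is the quotient of 2 means with no pseudocount. Genes with an average of both means of at least 0.05 were compared, and a ratio of at least 2 or at most 0.5 was counted. Named genes were the rule markers, all members of the gene lists, and the 25 highest and 10 lowest ratios among genes with a mean of at least 0.2 in the higher group. Members and lists were chosen with earlier results of these data known. The grouping by Klk6 and Ptgds, the use of Ermn and Sirt2 to check the label, Pmp22, Fxyd1, Gm28438 and Apoe were chosen after their values were seen, and Stmn1 stands in both the cytoskeleton and the dividing cell list. Pmp2 and Slc47a1 of the lists are not analysed here, and a few genes that the rule names are not reported here. No doublet caller was run. Leaving out the 30 cells with at least 3 markers of another type was an alternative, as were other bounds of the rule, the authors' stated cell filters, scaling per cell, other filters, a pseudocount, another comparison group and leaving out each set. Intervals are Clopper-Pearson intervals. A planned count test of Nd6 against WT EAE was not run, because neither cell names nor labels map cells to libraries and the values are not counts. The ratio computation was tested on simulated data. Python 3.11.15, numpy 2.4.6, scipy 1.17.1, pandas 2.3.3 and matplotlib 3.10.9 were used.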

Additional observations from a re-analysis of the deposited data

How the results depend on the processing

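No paired analysis was possible because numbered libraries could not be matched to cells. The share of oligodendrocytes followed the rule closely. It was 2.69% as reported, 5.50% with 2 markers, 1.25% with 4, 1.70% with a myeloid sum below 4, 11.5% with no limit and 0.661% with a sum of 0, a setting added after the data were seen. Of the 90 cells with a sum of 0, 19 were in D and 45 in E, so that setting also changed the mix of sets. Leaving out 1 set at a time gave 2.36 to 3.22% for the share of oligodendrocytes.

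The 491 genes at least 2-fold higher became 767 with 4 markers, 133 with no myeloid limit, 129 of the 562 genes with an average of at least 0.2, 2741 of all 18792 genes with no filter, 297 with a pseudocount of 0.05 and 867 with a sum of 0. The 602 lower genes became 2 with no myeloid limit, 113 with the higher filter, 8925 with no filter and 329 with the pseudocount. The 188 genes higher in every set became 19 with no limit, 71 with the higher filter, 105 with the pseudocount, 95 with a sum of 0 and 119 against only the other cells below the limit. With values scaled to 10000 per cell, 506 genes were higher and 586 lower. Leaving out sets gave 477 to 511 higher and 586 to 617 lower genes.

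Of 179 genes in the role lists, 68 were above the other cells in every set. With a sum of 0, where sets held as few as 4 cells, 33 were. The share over all genes was not computed for this measure. The share of Klk6-positive cells with Hopx, 61.7%, was 70.0% with a sum below 4, 40.2% with no limit and 83.3% with a sum of 0. With a Ptgds bound of 1 or 5 in place of 3, chosen after the data were seen, Hopx was found in 13% or 2.63% of Ptgds cells, and S100b in 54.6% or 34.2%. With no myeloid limit, Serpina3n was above 0 in 5.87% of cells in place of 11.5%, and without set B in 6.19%. H2-D1, above 0 in 36.1%, had 76.1% with no limit and 14.4% with a sum of 0, and Opalin, at 9.56%, had 17.1% with 4 markers.

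Depth is unknown, and sets with few oligodendrocytes (33 in F) limit each set's value.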

Other observations

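Among 208 genes at least 2-fold higher in oligodendrocytes with a mean of at least 0.2, Gm28438, Pmp22 and Fxyd1 were among those with the widest range between set means relative to their mean. Gm28438, whose role is not known here, had 0, 0.600, 0, 1.11, 0 and 1.39 in A to F, and in the other cells 0, 0.216, 0.000622, 0.926, 0.000884 and 0.460. It was thus listed in B, D and F and nearly absent from A, C and E in both. The mt-Nd3 values had the reverse pattern, also in the other cells, at 0.273, 0.00332, 0.246, 0.0104, 0.810 and 0.00515 in A to F. Whether the 2 patterns are linked was not tested. Pmp22, a protein gene of peripheral myelin, had means of 1.26, 0.107, 0.0909, 0.208, 0.151 and 0.0909 in the oligodendrocytes of A to F, and thus was highest in set A. Fxyd1, a regulator of the sodium pump, had 0.312, 0.293, 0.255, 0.0189, 0.0548 and 0.636, with its lowest values in D and E, while the other cells had between 0.0221 and 0.0564 in every set. It was above 0 in 17, 12, 8, 1, 4 and 6 oligodendrocytes of A to F.

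The 6 sets' oligodendrocytes lay apart on some immune genes. B2m, the light chain of MHC class I, had means of 2.60, 2.73, 1.62, 0.132, 0.301 and 1.36, and it was above 0 in 76.6%, 82.7%, 72.7%, 13.2%, 26% and 51.5% of these cells. D and E were lowest in both measures. The other cells had 4.66, 5.43, 4.13, 2.23, 2.07 and 4.67, again lowest in D and E.

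Hemoglobin transcripts were listed at a like level in oligodendrocytes and other cells of set E. Hbb-bs had a mean of 1.18 in the oligodendrocytes of set E against 0.996 in its other cells, and was above 0 in 61.6% and 59.9% of them. In set A the means were 0.0649 and 0.561.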
